A study of Mus musculus with 6 samples.

Results

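In mouse esophageal organoids, 10 genes of bone morphogenetic protein (BMP) signalling were followed across layers, cycling states and founder cells: the ligands Bmp2, Bmp4 and Bmp7, the secreted antagonists Sostdc1 and Fst, the target genes Id1, Id2 and Id3, and the inhibitory SMADs Smad6 and Smad7. The members were taken by gene symbol and make up 10 of the 32285 genes in the deposited tables. All 10 were found, and 9 were abundant enough for the test between layers; Bmp4 was not.

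The organoids were founded by basal cells of the esophageal epithelium of C57BL6 mice, sorted as positive for integrin-b1, negative for DAPI and either low or high for Cyto-ID, a dye of autophagic vesicles. There were 3 Cyto-ID Low and 3 Cyto-ID High libraries, labelled F2, M3 and F6 in each group. Both groups grew for 15 days in Matrigel with EGF, Y27632, N2, B27, N-acetyl-L-cysteine and a conditioned medium that holds Noggin and R-Spondin. Noggin is itself a secreted BMP antagonist, so every library came from cells grown in the presence of one. Dead cells were removed before 3′ droplet libraries were made. The labels do not say whether the libraries of a group came from separate animals, so p-values measure the spread between these libraries only.

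BMP ligands bind paired type I and type II receptors, which phosphorylate SMAD1, SMAD5 and SMAD9; these join SMAD4 and enter the nucleus. Id genes are among the best known direct targets: Id proteins lack a DNA-binding domain and hold E proteins away from DNA. Smad6 and Smad7 are induced by the same signals and limit them, while Sostdc1 and follistatin (Fst) bind ligands outside the cell. In the esophagus, BMP signalling is known to act on the differentiation of basal progenitors.

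Of 26808 barcodes, 25154 had 500 or more detected genes and were kept (2667 to 5617 per library). They held 152075756 UMIs, 8231527 to 48873796 per library, with a median of 1940.5 to 10038 per cell. Any pair of libraries shared at most 10 barcodes. Cells were split by deposited Krt13, a keratin of differentiating esophageal layers, on its natural log scale: 15202 cells lay below 3 and 9952 at 3 or more. The basal keratins marked all libraries, with Krt5 at 2916 to 4060 and Krt14 at 6437 to 15730 UMIs per 1000000 UMIs of a cell (CPM). Suprabasal markers rose with Krt13 (8 of 8), and 6 of 8 basal markers fell, while 2 rose. Markers of other cell types were low: 6 fibroblast markers (5 detected) summed to 0.272 to 4.95 CPM, 5 immune markers (4 detected, Ptprc at 0 in 6 of 6 libraries) to 8.35 to 22.0 CPM, and 3 muscle markers to 4.49 to 14.3 CPM. Sums of 2 of these lists moved with the layer. The muscle markers summed to 6.53 to 19.4 CPM in cells with Krt13 below 3 and 0.554 to 4.54 CPM at 3 or more, without overlap, and the immune markers to 5.94 to 15.1 and 14.7 to 31.7 CPM. Their part in the results was not tested. Both F6 libraries stood apart for Id1, Id2 and Id3, as described below, so results that rest on them are given with and without them.

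Levels below are the mean CPM over the cells of a library, and the 3 values of a group always stand in the order F2, M3 and F6. A difference between strata is on the log2(CPM + 1) scale after TMM scaling, a composition factor per profile, with its standard error (SE). It was tested with limma over all genes, with a threshold of 0.05 on the Benjamini-Hochberg adjusted p.

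Sostdc1, Bmp2, Fst, Id3 and Bmp7 fell from cells with Krt13 below 3 to cells with Krt13 of 3 or more in 6 of 6 libraries, Id2 rose on the TMM scale, and Id1, Smad6 and Smad7 did not pass the test. That made 6 of 9 tested members changed, 5 lower and 1 higher. The layers differed broadly: 59.9% of 12138 genes passed the same test, 31.4% higher and 28.5% lower. The members' count as a whole is therefore near the background, and 5 of 9 lower compares with 28.5% of all genes. With plain CPM, which applies no composition factor, 6 of 9 members were lower and 0 higher, against 72.3% of all genes called (57.3% lower, 15.0% higher), so there the lower members too were near the background. On the TMM scale the median difference of the 9 tested members was -0.64, against -0.00 over all genes tested. Plain CPM moved the median of all genes to -0.37 and moved the members down too, so -0.37 is not to be set against -0.64. The counts of 5 lower and 1 higher were the same without both F6 libraries and within non-cycling cells. Cells with more Krt13 also held more UMIs in 6 of 6 libraries (medians), and the part of depth was not tested. The counts were 5 lower and 1 higher without the 5% of cells with the most UMIs, and 5 lower and 0 higher with cells of at least 1000 genes.

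Sostdc1, which encodes a secreted antagonist also known as ectodin or USAG-1, had the steepest decline of the members. Its gene lies on chromosome 12 (36314139 to 36318452, plus strand; GRCm38, GENCODE M21). In cells with Krt13 below 3 its level was 45.5, 86.9 and 80.7 CPM in Cyto-ID Low, and 20.1, 75.5 and 24.0 CPM in Cyto-ID High. With Krt13 of 3 or more it was 6.24, 10.4 and 5.14 CPM and 1.72, 6.52 and 3.03 CPM. The lowest library below the threshold stood above the highest one over it, so the layers did not overlap. The difference was -2.66 ± 0.14 (SE, n = 6 libraries, adjusted p = 7.45e-09).

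Bmp2 (chromosome 2, 133552159 to 133562885) is the ligand with the clearest layer pattern. Its level in cells with Krt13 below 3 was 49.1, 42.9 and 33.0 CPM in Cyto-ID Low, and 55.1, 40.8 and 67.8 CPM in Cyto-ID High. In cells with Krt13 of 3 or more it was 8.03, 12.7 and 7.14 CPM, and 12.1, 12.7 and 23.3 CPM. The layers again did not overlap, and the highest Bmp2 level of either layer was in Cyto-ID High F6. The difference was -1.50 ± 0.11 (n = 6, adjusted p = 1.22e-07).

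Bmp7 (chromosome 2, 172868012 to 172940321), a ligand that can pair with BMP2 or BMP4 in heterodimers, declined less. It measured 21.5, 30.2 and 21.1 CPM (Low) and 24.1, 30.3 and 27.2 CPM (High) below the threshold, and 6.04, 14.6 and 6.35 CPM and 14.9, 18.2 and 17.7 CPM above it. No library of the Krt13-high layer reached the lowest of the other layer. The difference was -0.64 ± 0.13 (n = 6, adjusted p = 0.00132). Over the alternatives tried it ranged from -1.04 to -0.39 and kept its call. Bmp4 was near the detection limit: over all cells it measured 0.226 to 2.41 CPM, from 1 to 50 UMIs per library and 114 in all. It did not reach 1 CPM in 3 or more of the profiles, and with no such filter its layer difference was not called (adjusted p = 0.0573).

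Fst (chromosome 13, 114452290 to 114458951) encodes follistatin, which binds activins and, with lower affinity, BMPs. Levels with Krt13 below 3 were 12.9, 6.20 and 19.6 CPM in Cyto-ID Low, and 19.6, 6.57 and 20.2 CPM in Cyto-ID High. They were 2.40, 1.21 and 4.83 CPM, and 7.47, 2.26 and 5.93 CPM, with Krt13 of 3 or more. Both M3 libraries were the lowest in each layer, so the layers overlapped across libraries although Fst fell within each one. The difference was -1.25 ± 0.13 (n = 6, adjusted p = 3.38e-06).

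**Figure D1:**
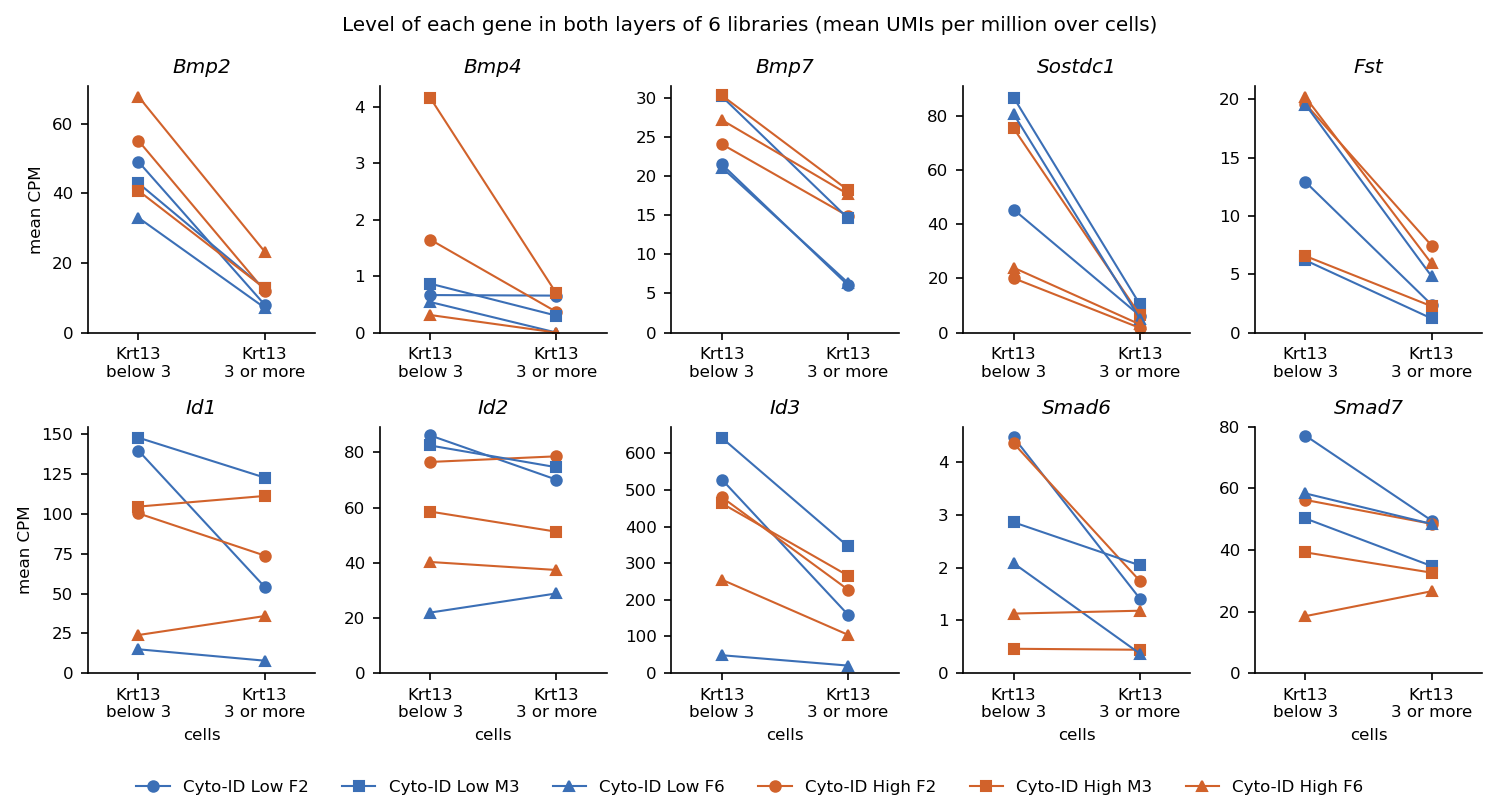
Mean CPM (vertical axes, each from 0) of the 10 genes in cells with Krt13 below 3 and with Krt13 of 3 or more; lines join the layers of 1 library, colour gives the Cyto-ID group and marker shape the replicate label. Sostdc1, Bmp2, Bmp7, Fst and Id3 are lower at Krt13 of 3 or more in 6 of 6 libraries, while lines of Id1, Id2, Smad6 and Smad7 go both ways and the F6 libraries lie at the bottom for Id1, Id2 and Id3.

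Of the Id genes, Id3 was called lower between layers, Id2 was called higher on the TMM scale but not with plain CPM, and Id1 was not called; differences among the 3 genes were not tested. Id3 (chromosome 4, 136143497 to 136145755) measured 528, 642 and 48.7 CPM in Cyto-ID Low and 480, 463 and 255 CPM in Cyto-ID High in cells with Krt13 below 3. In cells with Krt13 of 3 or more it measured 159, 346 and 20.4 CPM, and 228, 266 and 104 CPM. Id3 fell within every library, but the layers overlapped across libraries, through the low values of both F6 libraries. The difference was -0.74 ± 0.09 (n = 6, adjusted p = 1.20e-05).

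The call of Id2 depended on scaling, as did that of Smad6 described below. The CPM of Id2 was 86.2, 82.5 and 21.9 in Cyto-ID Low and 76.6, 58.6 and 40.3 in Cyto-ID High below the threshold, and 70.1, 74.6 and 28.9, and 78.6, 51.3 and 37.4, above it. On this plain scale the level was higher with Krt13 in 2 libraries and lower in 4. After TMM scaling the difference was positive in 6 of 6 libraries, 0.37 ± 0.09 (n = 6, adjusted p = 0.00309), whereas plain CPM gave -0.052 (adjusted p = 0.603). Plain CPM moved the median of all genes between layers to -0.37, and turned the split over all genes from 3809 higher and 3459 lower to 1821 higher and 6960 lower. Id2 thus lay above the median gene under both scalings, while a higher absolute level in Krt13-high cells is not shown. The call was also lost with Krt13 split at 4 (adjusted p = 0.367) and with cells of at least 1000 genes (adjusted p = 0.0970).

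Id1 did not pass the layer test (0.04 ± 0.16, 95% interval -0.32 to 0.40, adjusted p = 0.850); plain CPM gave -0.38 (adjusted p = 0.0742). Its level was 140, 148 and 14.9 CPM in Cyto-ID Low and 100, 105 and 23.9 CPM in Cyto-ID High below the threshold, against 54.2, 123 and 7.80 CPM and 73.9, 111 and 35.8 CPM above it. CPM was lower with more Krt13 in 3 of 3 Cyto-ID Low libraries, and in Cyto-ID High it was lower in F2 and higher in M3 and F6.

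The inhibitory SMADs showed no called layer difference under TMM scaling. Smad7, which also restrains TGF-beta signalling, differed by 0.19 ± 0.11 (adjusted p = 0.143), with group means of 50.0 ± 19.8 CPM below and 40.1 ± 9.97 CPM above the threshold (SD, n = 6), and its sign turned with plain CPM (-0.23). It was 0.067 without Cyto-ID High F6 and 0.029 without both F6 libraries. Smad6, the more BMP-selective of the pair, rested on 369 UMIs in all. It differed by -0.35 ± 0.19 (adjusted p = 0.124), which became -0.61 with adjusted p = 0.0138 under plain CPM, and -0.23 without Cyto-ID Low F6.

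Of 9 members looked up, Bmp4, Id2, Id3 and Smad6 matched the RefSeq promoter table (GRCm38.p6). In the 250 bases before the start, the GC-rich SMAD1/5 element GGCGCC, which reads the same on both strands, was found in Id2 and not in the other 3, against 9.59% of 32851 promoters. The SMAD-binding core GTCT or its complement AGAC was present in 4 of 4, against 82.9% of promoters. The Id2 match is shown because it is the stretch of a member that holds the SMAD1/5 element, at chr12:25096306-25096335 on the minus strand, inside the Id2 gene and within an intron of 1 GENCODE M21 transcript; capitals mark the element.
Id2: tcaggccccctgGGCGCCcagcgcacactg

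Levels were also read in finer steps of Krt13. Over bins of 0 to 1, 1 to 2, 2 to 3, 3 to 4, 4 to 5 and 5 or more, Sostdc1 averaged 69.8 ± 38.8, 51.7 ± 30.1, 33.2 ± 21.7, 9.83 ± 6.28, 4.38 ± 3.20 and 1.65 ± 1.43 CPM (SD, n = 6). Within the Krt13-low cells Sostdc1 was already lower in the bin of 1 to 2 than in that of 0 to 1 in 6 of 6 libraries. Bmp2 measured 50.6 ± 14.7, 47.7 ± 12.3 and 41.5 ± 6.87 CPM below a Krt13 of 3 and then 17.8 ± 5.39, 10.6 ± 6.40 and 8.87 ± 9.36 CPM. It too was lower in the bin of 2 to 3 than in the first, in 5 of 6 libraries. The step from the bin of 2 to 3 to that of 3 to 4 was downward for Bmp2, Bmp7, Sostdc1 and Id3 in 6 of 6 libraries, and for Fst and Id1 in 5. Bin levels are plain CPM, a scale on which the median of all genes was -0.37 between layers. On the TMM scale Id1 was lower at a Krt13 of 3 or more in only 3 of 6 libraries. These bin levels are descriptions with no test, and 10.8% to 15.4% of a library's cells lay within 0.5 of the Krt13 threshold. No Krt13 UMI was found in 12.3% to 49.0% of a library's cells. In Cyto-ID High F6 the first bin held 2201 cells, and 2197 cells had no Krt13 UMI. Median UMIs in the bins of 1 to 2 and 2 to 3 were 2280 and 1697 in Cyto-ID High F6, and 2478 and 2547 in Cyto-ID Low F6. The part of depth in the bins was not tested.

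Id2 had its highest bin between Krt13 of 2 and 4 in 6 of 6 libraries, with means of 70.9 ± 29.8 and 69.1 ± 20.9 CPM there, 56.8 ± 22.9 CPM in the first bin and 43.6 ± 20.8 CPM in the last. Id3 was 400 ± 207, 417 ± 217 and 385 ± 224 CPM in the first 3 bins and 266 ± 180, 165 ± 108 and 112 ± 86.3 CPM in the others. Id1 ranged from 60.9 ± 39.9 to 89.6 ± 60.5 CPM, and its last bin was below its first in 3 of 6 libraries. Smad7 ranged from 52.8 ± 20.4 CPM in the first bin to 37.8 ± 8.52 CPM in that of 4 to 5. It was lower in the bin of 2 to 3 than in the first in 6 of 6 libraries, and in the last than in the first in 5. These Smad7 levels are plain CPM too. On the TMM scale Smad7 was higher at a Krt13 of 3 or more in 4 libraries and lower in 2, so a decline relative to other genes is not shown.

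**Figure D2:**
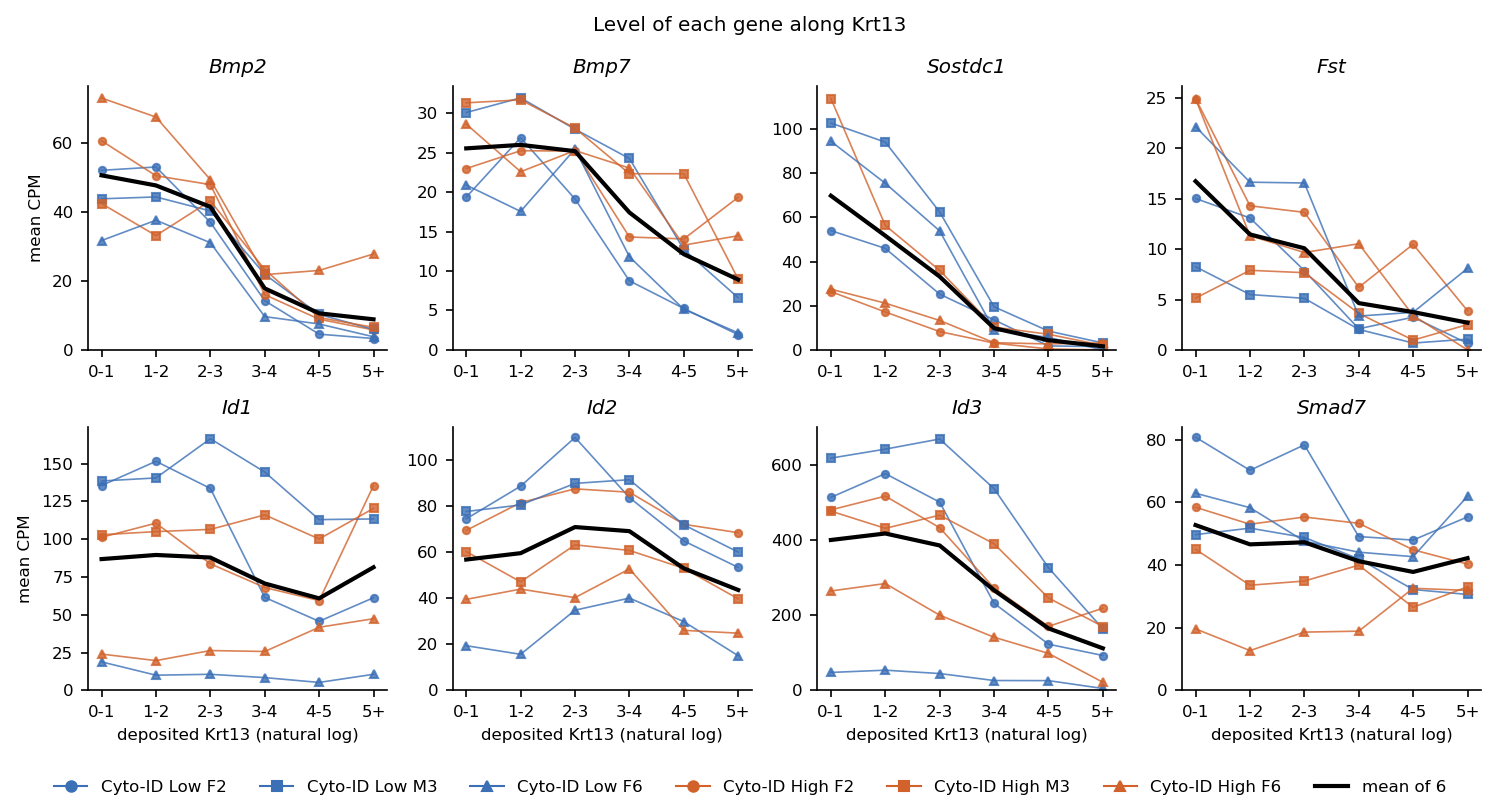
Mean CPM of 8 genes (vertical axes, each from 0) in bins of deposited Krt13 on its natural log scale (horizontal axes); thin lines are libraries and the black line is the mean of 6. The mean of Bmp2 goes from 50.6 to 41.5 CPM up to a Krt13 of 3 and is 17.8 CPM in the next bin, Sostdc1 declines from the first bin on, and Id2 is highest between 2 and 4.

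Cells were also split by cycling state. A cell was called cycling with at least 4 UMIs of 57 S and G2M phase genes after thinning to 1000 UMIs, which gave 2266 cycling cells below a Krt13 of 3 and 293 at 3 or more; 347 cells under 1000 UMIs were left out. Cycling Krt13-low cells held more UMIs than non-cycling ones in 6 of 6 libraries (medians of 2439 to 14649.5 against 1762 to 9155), and the part of depth in these differences was not tested. In Krt13-low cells Bmp2 was higher and Smad7 lower in cycling than in non-cycling cells. These were 2 of 10 members, 1 in each direction, against 23.1% of 12262 genes (10.2% higher, 12.9% lower), a share near the background. Plain CPM moved the split over all genes from 1256 higher and 1576 lower to 1787 and 976.

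Smad7 measured 67.9, 37.7 and 29.4 CPM in cycling cells of Cyto-ID Low, and 51.9, 31.2 and 14.2 CPM in Cyto-ID High. In non-cycling cells it measured 78.0, 51.4 and 62.2 CPM, and 56.0, 37.7 and 19.4 CPM. Cycling cells were lower in 6 of 6 libraries, with overlap across libraries, and the difference was -0.52 ± 0.13 (n = 6, adjusted p = 0.00853). With only cells of at least 1000 genes it was -0.37 (adjusted p = 0.0541), and without both F6 libraries -0.33 (adjusted p = 0.0221). Within the cycling cells, Smad7 was higher where G2M genes led than where S genes led in 6 of 6 libraries, 47.4 ± 21.3 against 32.1 ± 19.6 CPM (SD, n = 6), a description with no test. This split was read for all 10 members, and only Smad7 went the same way in every library. Fst was higher where G2M genes led in 5 of 6 (17.1 ± 6.24 against 8.17 ± 7.63 CPM). The smallest stratum held 35 cells.

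Bmp2 measured 75.3, 46.7 and 62 CPM in cycling Krt13-low cells of Cyto-ID Low and 63.5, 56.1 and 77.5 CPM in Cyto-ID High. Non-cycling cells had 46.0, 41.9 and 30.8 CPM, and 53.4, 37.5 and 64.0 CPM. Bmp2 was higher in cycling cells in 6 of 6 libraries, by 0.39 ± 0.10 (n = 6, adjusted p = 0.0148). The call was lost without Cyto-ID Low F2 (adjusted p = 0.0626), with at least 6 cycling UMIs (adjusted p = 0.0656) and with no filter on low genes (adjusted p = 0.0712). Bmp7 (0.29 ± 0.12, adjusted p = 0.0904) and Id3 (0.22 ± 0.08, adjusted p = 0.0724) were also higher in 6 of 6 libraries without passing the test, and both passed it with plain CPM (adjusted p = 0.0313 and 0.0105). Id3 also passed it without Low M3 or High M3 (adjusted p = 0.0309 and 0.0239), and without both F6 libraries Bmp7 and Id3 differed by 0.14 and 0.13. The 8 members that did not pass differed by -0.27 to 0.29.

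Among Krt13-high cells, Cyto-ID Low F6 held 14 cycling cells and was left out, which left 5 libraries. In Low F2, Low M3, High F2, High M3 and High F6 the cycling cells numbered 36, 68, 44, 85 and 46. Of these, 8, 32, 7, 31 and 7 had a Krt13 of 4 or more. Of 1441, 2453, 1223, 2149 and 1156 non-cycling cells, 912, 1716, 625, 1533 and 680 did. The part of Krt13 level in differences by cycling state within this layer was not tested. Bmp7 was higher in cycling cells, by 0.90 ± 0.27 (n = 5, adjusted p = 0.0336). It was the 1 call among 9 members, against 18.0% of 11624 genes (5.74% higher, 12.3% lower; with plain CPM 1503 and 771 genes in place of 667 and 1425). Bmp7 measured 19.9, 31.5, 34.1, 46.2 and 31.6 CPM in cycling cells of Low F2, Low M3, High F2, High M3 and High F6, from 3 to 23 UMIs each. In non-cycling cells of the same libraries it measured 5.73, 14.2, 14.2, 16.4 and 17.6 CPM, so the states did not overlap in these 5 libraries. Leaving out any of Low F2, High F2, Low M3 or High M3 ended the call (adjusted p = 0.0882 to 0.105), and so did either other cycling threshold, leaving out the 5% of cells with the most UMIs, and cells of at least 1000 genes (adjusted p = 0.0526 to 0.274). Sostdc1 (1.20 ± 0.43, adjusted p = 0.0655), Id3 (0.35 ± 0.12, adjusted p = 0.0578) and Smad7 (-0.77 ± 0.28, adjusted p = 0.0720) came close to the threshold. The value of Smad7 was -0.48 without Cyto-ID High F2, and summed UMIs called it (-0.96, adjusted p = 0.0284). Plain CPM called Sostdc1 and Id3, and so did leaving out Cyto-ID High F6, the other F6 library (adjusted p = 0.0296 and 0.00734).

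Across the 4 combinations of layer and cycling state, Sostdc1 was highest in cycling Krt13-low cells (70.1 ± 44.5 CPM, SD, n = 6), followed by non-cycling Krt13-low (52.3 ± 27.9), cycling Krt13-high (16.1 ± 11.7, n = 5 without Cyto-ID Low F6) and non-cycling Krt13-high cells (4.77 ± 2.67). Bmp2 measured 63.5 ± 11.6 CPM in cycling and 45.6 ± 11.8 CPM in non-cycling Krt13-low cells. Its level was 24.0 ± 14.1 CPM in cycling Krt13-high cells (n = 5) and 12.1 ± 5.66 CPM in non-cycling ones (n = 6). The step between these last 2 was upward with cycling in only 3 of 5 libraries and was not called (0.36 ± 0.42, adjusted p = 0.606), and it was 0.034 without Cyto-ID High F2 and 0.80 without Cyto-ID High F6. Cycling cells had more Sostdc1 than non-cycling ones in 4 of 6 libraries below a Krt13 of 3 and in 5 of the 5 fitted libraries at 3 or more. Neither step was called, and below a Krt13 of 3 the difference was 0.18 ± 0.12 (adjusted p = 0.301).

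**Figure D3:**
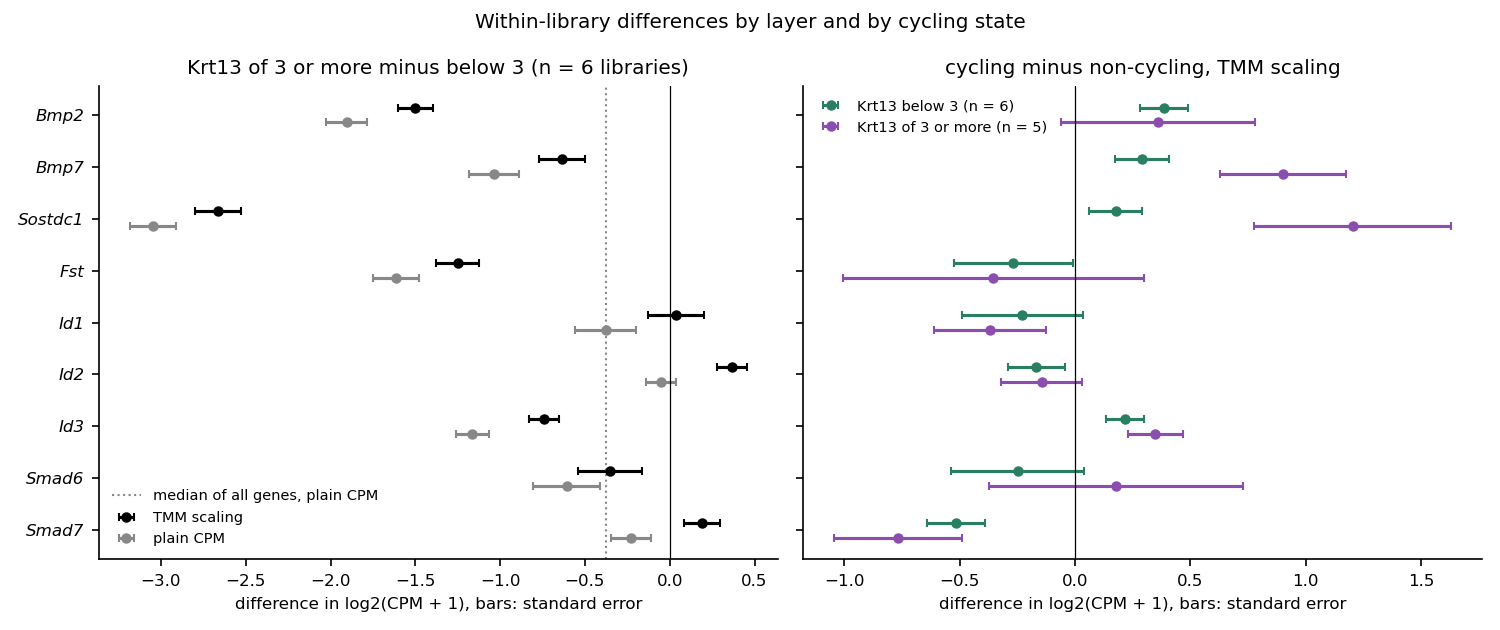
Differences in log2(CPM + 1) with SE bars for 9 genes; the left panel shows Krt13 of 3 or more minus below 3 with TMM scaling (black) and plain CPM (grey), and the right panel shows cycling minus non-cycling cells in each layer. Plain CPM shifts the layer differences left, with a median of -0.37 over all genes (dotted line), so Id2 moves from 0.37 to -0.052; in the right panel Smad7 lies left of 0 and Bmp7 right of 0 in both layers.

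Between Cyto-ID Low and Cyto-ID High organoids none of the 9 tested members passed the threshold over all cells. All genes gave 19 calls, 0.163% of 11645, all higher in Cyto-ID High, so 0 of 9 is what the background gives. With limma, 1 of 9 members (Bmp2) and 941 of all genes had an unadjusted p under 0.05. The replicate labels paired the libraries, and with the replicate as a block 64 genes but again 0 members were called (smallest adjusted p of a member 0.228). Without both F6 libraries, which left 2 a group, limma called 0 genes, with 275 of all genes and 0 members at an unadjusted p under 0.05.

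Bmp2 measured 31.9, 29.3 and 21.7 CPM in Cyto-ID Low and 42.6, 26.6 and 55.6 CPM in Cyto-ID High. The groups overlapped through High M3, and the difference was 0.64 ± 0.27 (n = 3 and 3, adjusted p = 0.611), which became 0.35 without High F6 and 0.24 without both F6 libraries. Bmp7 was 15.0, 23.1 and 14.6 CPM against 21.4, 24.2 and 24.6 CPM, higher in Cyto-ID High in 3 of 3 pairs of the same label, by 0.53 ± 0.23 (adjusted p = 0.617). In Krt13-high cells alone Bmp7 was the 1 of 9 tested members whose groups did not overlap (6.04, 14.6 and 6.35 CPM against 14.9, 18.2 and 17.7 CPM), a share near the 11.9% of 11141 genes without overlap. Its difference was 0.99 ± 0.32 (95% interval 0.29 to 1.70, adjusted p = 0.540), and 0.287% of genes were called there. Of the members, 2 of 9 had an unadjusted p under 0.05 in these cells (Bmp2 and Bmp7), as did 842 of all genes.

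Sostdc1 went the other way: 29, 52.3 and 47.7 CPM in Cyto-ID Low and 14.7, 40.7 and 18.2 CPM in Cyto-ID High. High was lower in 3 of 3 pairs and the groups overlapped, and the difference was -0.76 ± 0.42 (adjusted p = 0.673). It ranged from -1.23 without High M3 to -0.39 without High F2, and was -0.54 without both F6 libraries. Within layers it was -0.86 ± 0.49 below a Krt13 of 3 (adjusted p = 0.754; -1.46 without High M3, -0.43 without High F2 and -0.53 without both F6 libraries) and -0.82 ± 0.40 at 3 or more (adjusted p = 0.688; -1.24 without High M3 and -0.42 without High F2). At 3 or more the difference of Sostdc1 was -0.28 with cells of at least 1000 genes. Among Krt13-low cells 0.230% of 11730 genes were called, and 0 of 9 members, with 0 members at an unadjusted p under 0.05. Fst, the other antagonist, was higher in Cyto-ID High in 3 of 3 pairs: 8.51, 3.94 and 13.1 CPM against 16.1, 4.39 and 16.3 CPM, with overlap. The difference was 0.52 ± 0.50 (adjusted p = 0.802). It was 1.04 without High M3, 0.90 without Low F6, 0.33 without High F2, 0.18 without High F6, 0.093 without Low M3 and 0.57 without both F6 libraries. Smad7 was lower in Cyto-ID High in 3 of 3 pairs: 65.6, 43.3 and 54.1 CPM against 54.0, 35.9 and 20.7 CPM, by -0.52 ± 0.30 (adjusted p = 0.690). This became -0.22 without High F6 and -0.16 without both F6 libraries.

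Suprabasal markers, immune markers and cycling shares moved with the Cyto-ID groups. Within Krt13-low cells the 8 suprabasal markers together reached 125 to 172 CPM in Cyto-ID Low and 528 to 1185 CPM in Cyto-ID High, with no overlap. In Krt13-high cells they reached 1893 to 2030 against 3285 to 5242 CPM, and over all cells 900 to 986 against 1453 to 2298 CPM, again with no overlap. The 5 immune markers summed to 15.2 to 22.0 CPM in Cyto-ID Low and 8.35 to 14.7 CPM in Cyto-ID High over all cells, and to 11.3 to 15.1 CPM against 5.94 to 10.3 CPM in Krt13-low cells, without overlap in either. In Krt13-high cells their sums overlapped (18.6 to 31.7 against 14.7 to 19.0 CPM). The share of cycling cells among Krt13-low cells was 11.2%, 13.4% and 7.30% in Cyto-ID Low and 14.6%, 18.2% and 21.6% in Cyto-ID High, or 10.6 ± 3.08% against 18.1 ± 3.51% (SD, n = 3 each). No Low library reached a High one, and p was 0.10 (exact permutation test, two-sided), which 3 against 3 libraries cannot go below. Among cells with Krt13 of 3 or more the cycling share was 2.12 ± 0.788% against 3.70 ± 0.198%, again without overlap (SD, n = 3 each, exact permutation p = 0.10). The share of cells with Krt13 of 3 or more was 43.6 ± 1.65% against 35.7 ± 12.8% (exact permutation p = 0.40). Their part in the differences between groups was not tested.

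**Figure D4:**
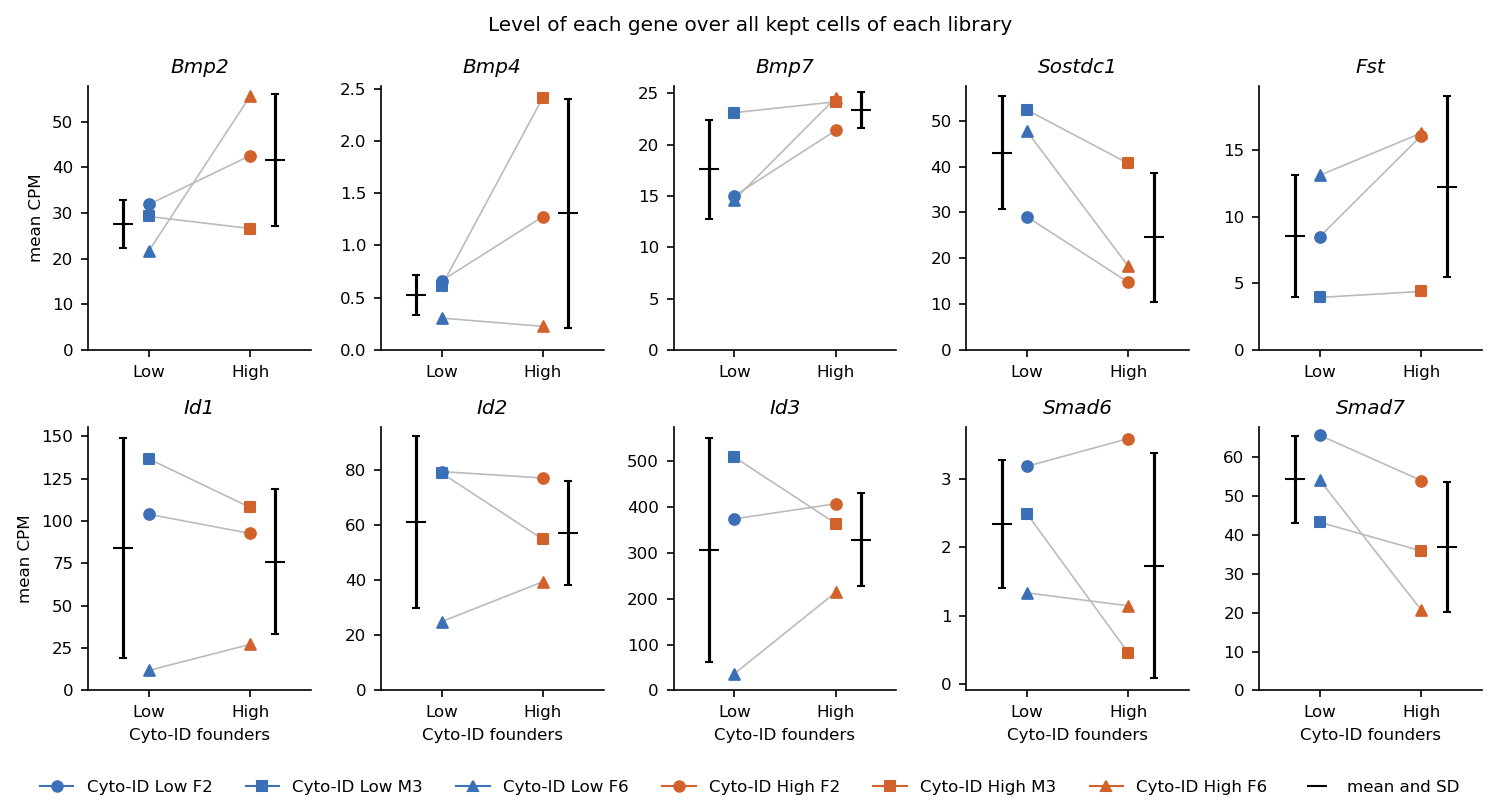
Mean CPM over all kept cells (vertical axes) in Cyto-ID Low and High libraries; marker shape gives the replicate label, grey lines join libraries of the same label, and black bars give the mean and SD of 3. The groups overlap for 10 of 10 genes (12.6% of 11645 tested genes do not overlap), Sostdc1 and Smad7 are lower and Bmp7 and Fst higher in Cyto-ID High in 3 of 3 pairs, and the F6 triangles are at the bottom for Id1, Id2, Id3 and Bmp4.

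Id levels were low in both F6 libraries, in either Cyto-ID group. Id1 measured 104, 137 and 11.8 CPM in Cyto-ID Low and 92.6, 108 and 27.2 CPM in Cyto-ID High. Id3 measured 374, 508 and 36.4 CPM, and 407, 364 and 214 CPM. Both F6 libraries were below all 4 others for both genes, and Low F6 was the lowest of all.

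Id2 had the same order, at 79.5, 79.0 and 25.0 CPM in Cyto-ID Low and 77.1, 54.9 and 39.5 CPM in Cyto-ID High. Bmp4 was also lowest in F6 (0.305 and 0.226 CPM against 0.611 to 2.41 CPM), but this order rests on very few UMIs. Below a Krt13 of 3 it was detected in 1 cell of Low F6 and 3 cells of High F6, and at 3 or more in 0 cells of either. Sostdc1, Bmp2, Bmp7, Fst, Smad6 and Smad7 were not below all other libraries there. The F6 libraries held 8231527 and 9886594 UMIs, with medians of 2716 and 1940.5 per cell, and Cyto-ID High M3 held 13071936, with a median of 2357. The part of depth in these levels was not tested. The values of Id1 in the F6 libraries rest on 87 and 284 UMIs. The labels do not say what F6 is, and with 1 pair of libraries no test was made.

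The group differences of the Id genes depended on F6. Over all libraries they were 0.33 ± 0.82 for Id1, 0.14 ± 0.40 for Id2 and 0.84 ± 0.81 for Id3 (adjusted p = 0.940, 0.946 and 0.802). Without Cyto-ID Low F6 they became -0.72, -0.37 and -0.31. For Id1 and Id2 even the group means of CPM had the other sign (84.1 ± 64.7 in Low and 75.9 ± 42.9 in High for Id1, 61.1 ± 31.3 and 57.2 ± 18.9 for Id2, SD, n = 3).

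The layer difference itself was compared between groups. Id1 differed between layers by -0.77, 0.12 and -0.42 in Cyto-ID Low and by -0.04, 0.48 and 0.86 in Cyto-ID High, on the TMM scale. Cyto-ID High lay above the Low library of the same label in 3 of 3 pairs, although the groups overlapped. The groups' means of -0.36 and 0.43 differed by 0.79 ± 0.23 (95% interval 0.29 to 1.29). This was not called without the pairing (adjusted p = 0.270) and was called with the replicate as a block (adjusted p = 0.0148). The block also raised the calls over all genes from 28, 0.231% of 12138 (0.0824% higher, 0.148% lower), to 233. Without both F6 libraries the blocked value was 0.55 (adjusted p = 0.00183), and 288 genes were called. That fit holds the F2 and M3 pairs alone, so its adjusted p rests mostly on the spread that limma shares across genes. It does not make the Id1 difference firmer.

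The layer differences of Bmp7 were -1.14, -0.62 and -1.15 in Cyto-ID Low and -0.27, -0.33 and -0.30 in Cyto-ID High. Those of Fst were -1.54, -1.40 and -1.39 in Cyto-ID Low and -0.91, -0.92 and -1.35 in Cyto-ID High. For both genes every Cyto-ID High library lay above every Low library, which makes 2 of 9 members without overlap, against 14.4% of 12138 genes. The difference of 0.67 ± 0.20 for Bmp7 did not pass (adjusted p = 0.261, and 0.0878 with the block), nor did that of 0.38 ± 0.25 for Fst (adjusted p = 0.626). The other 6 members differed by -0.18 to 0.48, with adjusted p of 0.539 or more.

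The surrounding pathway was read from a list of 52 other genes: ligands, antagonists and modulators, receptors, signal transducers and ubiquitin ligases, targets, and the E proteins that Id proteins bind. Between layers 32 were abundant enough to test, and 5 rose and 16 fell with Krt13 (plain CPM: 2 and 25). The share called, 21 of 32, was near that of all genes, while the list's median of -0.36 compares with -0.00 (plain CPM: -0.69 and -0.37). Receptors mostly did not pass (7 of 10, with 1 higher and 2 lower), while 59.9% of all genes were called (31.4% higher, 28.5% lower).

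Bambi, a membrane pseudoreceptor that blocks BMP and TGF-beta signalling, was the 1 antagonist of 6 tested that rose, while 4 fell. It rose from 11.5 ± 5.78 to 22.6 ± 12.3 CPM (SD, n = 6), by 1.25 ± 0.12 (adjusted p = 2.10e-06). Crim1, which binds BMPs at the cell surface, fell from 37.7 ± 9.41 to 12 ± 4.88 CPM (-1.21 ± 0.10), and Fstl3, a relative of follistatin, fell from 18.7 ± 7.59 to 5.94 ± 1.75 CPM (-1.08 ± 0.10). Inhba, the activin A subunit that follistatin binds, fell from 322 ± 158 to 131 ± 53.7 CPM (-0.81 ± 0.08). Id4, the remaining Id gene, fell as Id3 did (-0.82 ± 0.13). All 3 E protein genes of the list fell, Tcf3 by the most (-0.73 ± 0.10). Of all genes, 31.4% were called higher and 28.5% lower (15.0% and 57.3% with plain CPM). The counts of antagonists and E proteins were not tested against these shares. The calls of Bambi, Crim1, Fstl3, Inhba, Id4 and Tcf3 held under plain CPM.

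With cycling in Krt13-low cells 7 of 32 list genes were lower and 0 higher, against 23.1% of all genes called and 12.9% called lower. Plain CPM gave 5 lower and 1 higher: Tcf3 was then called higher, and Crim1 and Acvr2b were no longer called (adjusted p = 0.0355, 0.0999 and 0.0585). The fall of Inhba was called with the lowest adjusted p of these, from 337 ± 159 CPM in non-cycling to 190 ± 115 CPM in cycling cells (-0.99 ± 0.09, adjusted p = 1.11e-06). The receptors Acvrl1 (-1.34 ± 0.38), Acvr1b (-0.91 ± 0.22) and Acvr2b (-0.71 ± 0.22) were lower too, as were Fstl3 (-0.89 ± 0.14) and Smurf1, a ubiquitin ligase for SMADs (-0.53 ± 0.13). The remaining gene called lower was Crim1 (-0.35, adjusted p = 0.0320). In Krt13-high cells 6 of 30 were called: Tcf3 was higher in cycling cells (0.96 ± 0.30), and Bambi (-1.73 ± 0.39), Inhba (-0.73 ± 0.16), Smurf1 (-0.70 ± 0.20), Smad4 (-0.68 ± 0.20) and the ligand Bmp6 (-1.68 ± 0.48) were lower. That is 1 higher and 5 lower, against 18.0% of all genes called. Bmp6 averaged only 2.09 CPM over all cells (1.48 to 2.92), and the cycling strata held 36 to 85 cells, so its value lies near the detection limit. Plain CPM turned the split to 3 higher and 1 lower: Bambi stayed called lower, while Bmp6, Inhba, Smurf1 and Smad4 were not called (adjusted p = 0.162, 0.279 and 0.286 for the last 3). Between the Cyto-ID groups limma called 0 of 32 list genes over all cells, with 3 at an unadjusted p under 0.05.

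Likeness of pattern was measured as Pearson's r of log2(CPM + 1) over the 24 profiles of library, layer and cycling state, which share libraries and depth and are not independent; 1 of them holds 14 cells. Over these profiles r was 0.86 between Id1 and Id3, 0.84 between Id1 and Id2, and 0.76 between Id2 and Id3. Both F6 libraries were lowest for all 3 genes, and over the 16 profiles without them r was 0.75, 0.0064 and 0.26. The likeness of Id2 to Id1 and Id3 thus rested on the F6 libraries. Between Bmp2 and Sostdc1 r was 0.76, and between Bmp2 and Bmp7 it was 0.70. These became 0.68 and 0.63 without the profile of 14 cells, and 0.71 and 0.59 without both F6 libraries. Id3 had r of 0.49 with Bmp2, 0.37 with Sostdc1 and 0.56 with Bmp7 over the 24 profiles. Without both F6 libraries these were 0.82, 0.80 and 0.78, so the lower likeness of Id3 to these genes also rested on F6. Between Fst and Smad7 r went from 0.29 to 0.77. Other pairs moved up or down.

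Among 7232 genes at 10 CPM or more on average, the gene with the highest r over the 24 profiles was Tspan4 for Sostdc1 (0.91), Sod1 for Bmp2 (0.94), Noc2l for Bmp7 (0.95) and Tmem245 for Fst (0.81). It was Timm17a for Id1 (0.87), Plgrkt for Id2 (0.87), Rbm3 for Id3 (0.91) and Fam114a2 for Smad7 (0.89). These names depended on the profiles used. Without the profile of 14 cells 4 of 8 were still first, and the others gave way to Bcam for Sostdc1 (0.93), Mybbp1a for Bmp2 (0.90), Zfhx3 for Fst (0.84) and Arf5 for Id2 (0.91). Without both F6 libraries 0 of 8 were still first.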

How the data were processed

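The 6 deposited tables give 1 value per gene and barcode. The authors deposited natural log values, ln(1 + 10000 × UMIs / cell total), a unit read from the values: undoing the log gave whole UMIs for 100% of values (tolerance 1e-06). The submitters' processing notes name Cell Ranger 6.0.0, Seurat 4 and the build mm10 (GRCm38). How the authors filtered barcodes is not given in the sources used here.

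Cells with at least 500 genes were kept. CPM was averaged over the cells of each library and stratum (strata under 20 cells left out of the fits), divided by TMM factors (trimming 30% on log ratio and 5% on level) and moved to log2(CPM + 1) for limma 3.58.1 (R 4.3.3) with a mean-variance trend. This test was chosen because the deposited unit is a log value, not a count. Genes that reached 1 CPM in 3 or more profiles entered, and p-values were adjusted over all of them. Library was a block for layer and cycling. Shares were compared with exact permutation tests. The fits by layer, by cycling below a Krt13 of 3 and by Cyto-ID over all cells were tested on simulated data. The other fits were not run on simulated data. No doublet caller was run, and free RNA was not estimated. Intervals cover the spread between libraries.

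Libraries were paired by replicate label, although the labels do not state a paired design. Deviations from the group mean correlated within each label (r = 0.76 in F2, 0.58 in M3 and 0.15 in F6, across 8878 genes). The rule used asked for more than 0.1 in each pair. Deviations within a group are tied through their mean, so these values of r are not independent. Of the pairs with different labels, Low F2 and High F6 correlated at 0.17, above the F6 pair, so the pairing of F6 is weak; the other 5 were below 0.

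The members, lists and thresholds were chosen with earlier results of these data known. All 10 members are named. Other pathway genes are named if past the threshold with a mean of at least 5 CPM, at most 6 per comparison by size of difference; Bmp6 and, for cycling below a Krt13 of 3, Crim1 and Tcf3 were added after their values were seen. For likeness, the 3 genes with the highest r were listed for members of at least 5 CPM, and the first is named. Alternatives covered the pseudocount (0.1 CPM), the filter, plain CPM, summed UMIs, cells of at least 1000 genes, the top 5% of cells by UMIs, the Krt13 and cycling thresholds, each library left out and the replicate block. Leaving out both F6 libraries (for likeness too), and the profile of 14 cells for likeness, was added after seeing the data.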

Additional observations from a re-analysis of the deposited data

Results flagged for a closer look

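Id1 was marked because a test of the difference between groups passed: its layer difference (Krt13 of 3 or more minus below 3) was 0.79 higher in Cyto-ID High than in Cyto-ID Low organoids with the replicate as a block. The value is the same without the block, where it was not called, and the labels do not state a paired design.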

How the results depend on the processing

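Of 9 called member differences, 5 kept their call and sign under every alternative tried and 4 lost the call under at least 1, with Id2 between layers also changing sign (-0.052 under plain CPM). Of 55 that were not called, 48 were called under no alternative and 7 under at least 1, and 27 changed sign under at least 1. Plain CPM also turned Id1 (-0.38) and Smad7 (-0.23) between layers, and cells of at least 1000 genes turned Smad6 (0.042). The difference of Bmp2 with cycling at a Krt13 of 3 or more turned to -0.25 with cells of at least 1000 genes and to -1.15 with at least 6 cycling UMIs. The layer difference of Fst between Cyto-ID groups turned to -0.045 with Krt13 split at 4. Without both F6 libraries the layer difference of Id1 was -0.054, and the Cyto-ID differences of Id1, Id2 and Id3 over all cells were -0.14, -0.17 and -0.073. Leaving out 1 library gave -0.13 to 0.20 for Id1 between layers, and -0.72 to 0.94 for Id1, -0.37 to 0.39 for Id2 and -0.31 to 1.52 for Id3 between Cyto-ID groups. For these, the cause was not tested. Between Cyto-ID groups plain CPM moved the median of all genes to -0.10 over all cells and -0.14 below a Krt13 of 3.

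Counts of all genes called between Cyto-ID groups were unstable. Over all cells (19) they were 5 with a pseudocount of 0.1 CPM, 0 with no filter and 0 without both F6 libraries, and 6 to 17 with 1 library left out. Below a Krt13 of 3 (27) they were 2 with no filter, 16 with cells of at least 1000 genes, 0 without F6 and 6 to 28 with 1 library left out. At 3 or more (32) they were 6 with the pseudocount, 0 with no filter, 21 with summed UMIs, 20 with Krt13 split at 2, 0 without F6 and 4 to 30 with 1 library left out. For the difference between layers (28) they were 9 with the pseudocount, 0 with no filter, 2 with cells of at least 1000 genes, 10 without the 5% of cells with the most UMIs, 17 and 9 with Krt13 split at 2 and 4, 3 without F6 and 4 to 101 with 1 library left out. The replicate block gave 64, 81, 87 and 233 in these comparisons, and 288 for the last without F6; it changed no member call other than Id1.

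The High minus Low share of cycling cells below a Krt13 of 3 was 7.49 percentage points, and 18.5 with cells of at least 1000 genes. At 3 or more it was 1.58 points. This became 2.78 and 0.261 points with Krt13 split at 2 and 4, 2.13 and 0.863 with at least 3 and 6 cycling UMIs, and 3.11 with cells of at least 1000 genes. The share with Krt13 of 3 or more differed by -15.3 to -3.82 points with 1 library left out. Depth limits Bmp4 and Smad6 most, at 114 and 369 UMIs in all, and the Krt13-high cycling cells of single libraries. When leaving out a library left 2 in a group, the spread was pooled over both groups.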
